A study of Mus musculus with 10 samples.

Results

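Genes of fat cells and of fat storage and release were followed in mouse skin, from the hormones that adipocytes secrete to the enzymes that build and break down triglyceride. The set was chosen by name, with earlier results of these data known. In each mouse's table of 20611 genes, all of the 40 listed gene symbols were found. Of these, 39 had enough reads to be tested and 1, Ucp1, did not. The comparison was between skin of Klk6+ mice and skin of WT mice, with 5 mice in each group.

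Adipocytes store fatty acids as triglyceride in a single large droplet coated with perilipins and CIDE proteins. Fatty acids freed from lipoproteins, or made from citrate, are joined to a glycerol backbone by a chain of acyltransferases, and between meals the store is taken apart by adipose triglyceride lipase, hormone-sensitive lipase and monoacylglycerol lipase in turn. In skin, white adipocytes form a layer below the dermis, while sebaceous glands and the upper epidermis make lipids of their own with several of the same enzymes.

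Klk6+ mice carried 2 transgenes: Tetos-Klk6, which encodes mouse Klk6 (kallikrein-related peptidase 6, a secreted serine protease) with a Myc/His tag, and K5-tTA, in which a bovine keratin 5 promoter makes the tetracycline transactivator in epidermal keratinocytes and in some other stratified squamous epithelia. Klk6 is made from the transgene when doxycycline is absent. The WT group was made up of littermates without transgenes or with 1 transgene that is not expressed alone, and the labels do not say which mouse was which. Both lines had been crossed back to C57BL/6. Breeding took place on doxycycline, because pairs kept without it gave no double-transgenic young. Per the labels, doxycycline chow was given back to Klk6+ mice at 10 to 11 weeks, shortly before they would stop eating and become moribund, and tissues were collected at 14 to 16 weeks. The schedule is stated for Klk6+ mice and not for WT mice, and food intake, body weight and body site were not given, so effects of genotype and of doxycycline, feeding or illness on fat cell genes cannot be told apart here. Each group held 3 males (mice 1 to 3) and 2 females (mice 4 and 5), and values are given in that order. The design text states that the aim was to find genes whose expression differs in Klk6+ skin.

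The libraries held 26521019 to 39796511 counted reads in Klk6+ mice and 32798416 to 41970272 in WT mice. Klk6 itself stood at 10417 to 14102 CPM of the library total in Klk6+ skin, against 13.2 to 26.2 in WT skin. It was thus high at collection, although the labels place collection after doxycycline was given back to Klk6+ mice. The reason for this was not tested. Klk6+ and WT libraries separated along the main axis of variation (78.3% of variance), and the next axis (7.85%) set Klk6+ mice 3 and 5 apart from the other 3 Klk6+ mice. Levels are given as CPM (counts scaled to library size), which do not correct for transcript length, unless FPKM (fragments scaled to transcript length and library size) is named. Differences are log2 fold changes of Klk6+ over WT ± SE from edgeR's quasi-likelihood test with sex as a covariate, and a gene is said to have risen or fallen where the Benjamini-Hochberg adjusted p over the 14861 genes tested was below 0.05. Skin was sampled whole, and CPM is relative to all reads of a library. Fewer adipocytes, less RNA per adipocyte and a larger part of RNA from other cells therefore cannot be told apart. Each library came from 1 mouse.

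The adipocyte check was positive in both genotypes and lower in Klk6+ skin. The 7 white adipocyte markers Adipoq, Plin1, Cidec, Lep, Cfd, Adig and Fabp4 summed to 875 to 1565 CPM in Klk6+ mice, against 2278 to 3245 CPM in WT mice, with no overlap. Of these 7, 6 fell and Adig rose. Of the brown adipocyte markers, Ucp1, the uncoupling protein that defines thermogenic fat, was close to 0 in both genotypes, with 0, 1, 2, 1 and 4 reads in Klk6+ libraries and 0, 1, 0, 2 and 0 reads in WT libraries. It did not pass the filter on low counts, and no fold is given. The other 3 brown adipocyte markers did not move together: Cidea, a droplet protein of brown fat that sebaceous glands also express, had 67.3 to 283 CPM in Klk6+ mice and 12.8 to 53.1 CPM in WT mice (log2 fold change 2.62 ± 0.34, higher without overlap), Cox8b fell (log2 fold change -2.76 ± 0.18) and the deiodinase gene Dio2 was not called (0.89 ± 0.48).

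Of the 39 tested members, 12 (30.8%) rose and 21 (53.8%) fell, while 37.7% of all tested genes rose and 35.1% fell (72.8% called in all). Gpam, Agpat2, Dgat2, Ucp2, Cpt1a and Acadl were not called. The median log2 fold change was -0.84 over the members and 0.04 over all genes. The values of the 5 Klk6+ mice and of the 5 WT mice did not overlap for 8 members that were higher (20.5%) and 20 that were lower (51.3%), against 30.1% and 27.0% of all genes (57.0% either way). Called changes of at least 2-fold were found for 9 members upward (23.1%, all genes 15.7%) and 16 downward (41.0%, all genes 20.5%). By calls and by overlap the share of members that fell was above that of all genes and the share that rose was below it, while by changes of at least 2-fold both shares were above. Because the members were chosen with earlier results of these data known, these shares describe the set and are no test of it.

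**Figure D1:**
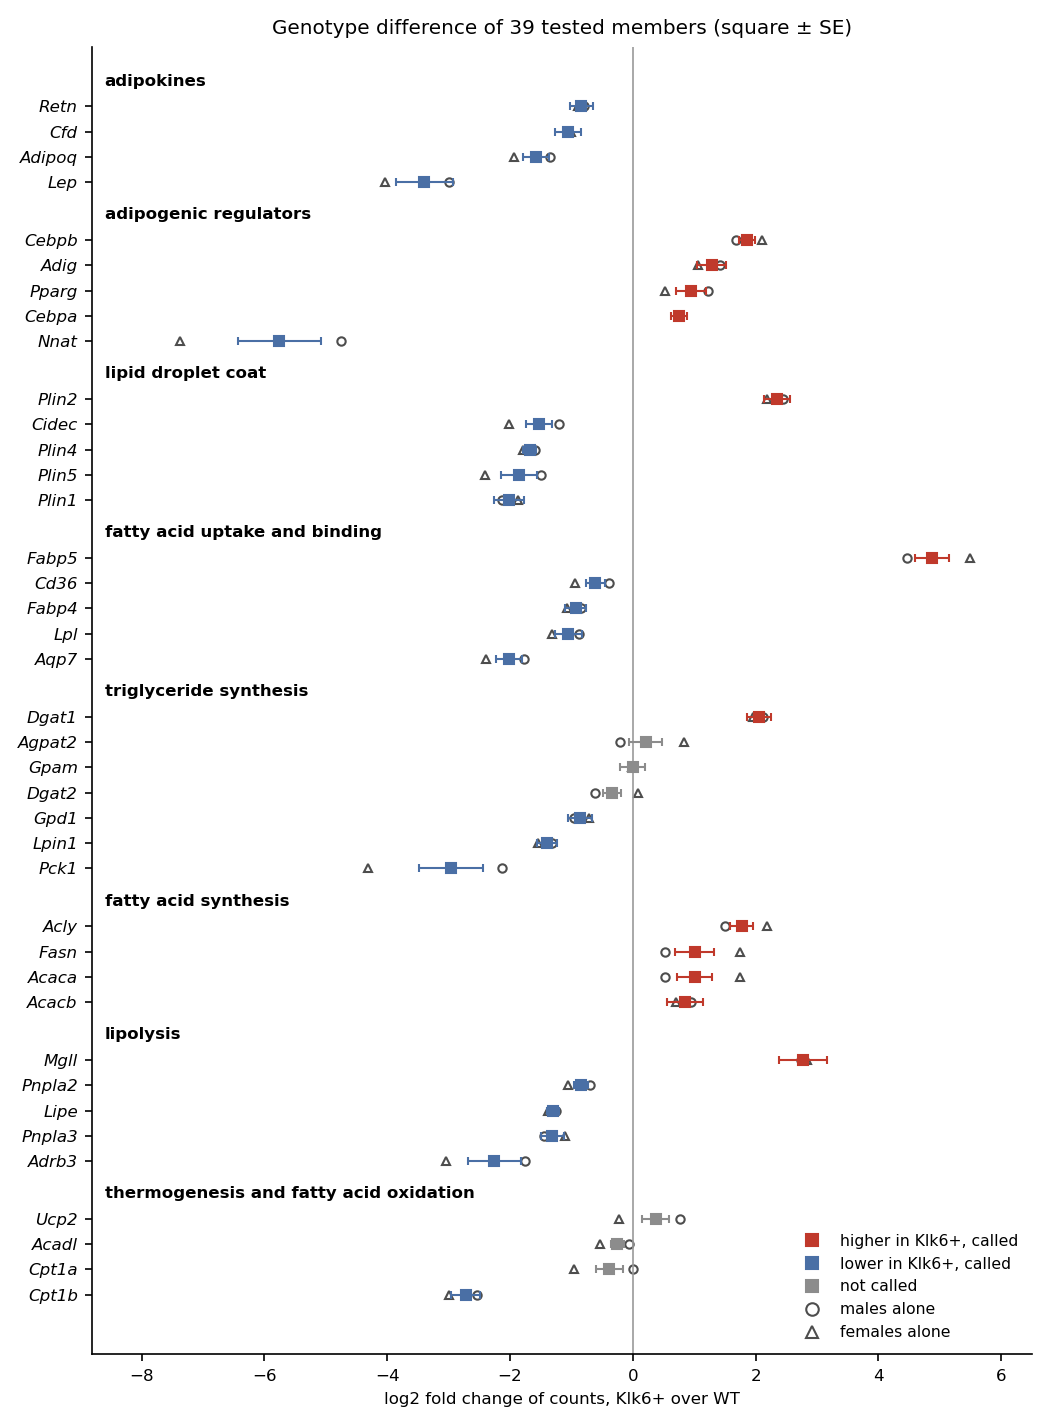
Log2 fold change of Klk6+ over WT for the 39 tested members, grouped by role, with bars for ± SE of the edgeR fit on 5 Klk6+ and 5 WT mice. All 4 adipokines lie below 0 and all 4 enzymes of fatty acid synthesis above it, and the extremes are Fabp5 at 4.87 and Nnat at -5.76.

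Upstream sequence was looked at for the members at the centre of these differences, since the genes for adipocyte hormones fell while a droplet coat gene rose. Positions of genes are those of GENCODE M21 (GRCm38), in which all 40 members are protein-coding. RefSeq (GRCm38.p6) gave a promoter for 32 of the 40 member symbols, 40 promoters in all, and the 250 bases before each start were searched on both strands. The stretches of Lep and Adipoq, which fell, and of Plin2, which rose, are printed 5′ to 3′ on the gene's strand, with the matched motifs in capitals: the C/EBP palindrome TTGCGCAA in Lep and CCAAT, or ATTGG on the other strand, in Adipoq and Plin2. They lie at chr6:29059971-29060220 on the plus strand (Lep), chr16:23146286-23146535 on the plus strand (Adipoq) and chr4:86670060-86670309 on the minus strand (Plin2).
Lep: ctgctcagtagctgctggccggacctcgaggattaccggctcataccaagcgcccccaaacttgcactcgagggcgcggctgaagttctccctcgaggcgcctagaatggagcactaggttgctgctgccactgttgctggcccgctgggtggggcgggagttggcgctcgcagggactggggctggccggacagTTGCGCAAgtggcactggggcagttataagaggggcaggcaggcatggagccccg
Adipoq: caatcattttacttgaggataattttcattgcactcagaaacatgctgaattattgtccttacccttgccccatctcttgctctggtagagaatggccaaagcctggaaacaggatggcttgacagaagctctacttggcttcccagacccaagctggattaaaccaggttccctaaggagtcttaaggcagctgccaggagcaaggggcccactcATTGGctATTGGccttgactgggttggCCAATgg
Plin2: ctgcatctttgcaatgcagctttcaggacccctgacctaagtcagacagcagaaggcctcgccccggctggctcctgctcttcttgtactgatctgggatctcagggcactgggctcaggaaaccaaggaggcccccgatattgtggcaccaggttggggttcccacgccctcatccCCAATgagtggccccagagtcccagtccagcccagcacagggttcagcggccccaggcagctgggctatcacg

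TTGCGCAA was found in 1 of the 40 member promoters, that of Lep at position -55 from the start, and in 0.164% of the 32851 promoters of the table. CCAAT was found in 12 member promoters and in 33.8% of all. The PPAR direct repeat of 13 letters was found in 0 member promoters and in 0.0335% of all promoters. TATAAA was in 3 member promoters (Acacb, Pparg and Cebpa; 12.4% of all), the E-box CACGTG in 2 (Mgll and Lipe; 6.02%) and the sterol element TCACNCCAC in 1 (Ucp2; 1.05%). Both E-box stretches overlap exons annotated in GENCODE, and that of Lipe lies inside the Lipe gene as annotated there (chr7:25379527-25398710). No searched motif holds another within its letters. A match is a run of letters and not a measured binding site.

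Other cell types that express some of these genes moved with genotype as well. The 15 skeletal muscle markers all fell and summed to 4678 to 9542 CPM in Klk6+ skin, against 60574 to 90845 in WT skin; Plin4, Plin5, Lpl, Cpt1b, Fitm1, Cox7a1 and Cox8b are also muscle genes. Of 9 sebaceous gland markers 8 rose, to sums of 2629.7 to 5926 CPM in Klk6+ skin and 575 to 1471 in WT skin, and Pparg, Plin2, Dgat1 and Fasn are also used by sebocytes. The sebaceous sum was lowest in Klk6+ mouse 5, which was the lowest of its group in 18 of the 39 members. These 18 included Pparg, Plin2, Dgat1 and Mgll and also Lep, Cidec, Lpl, Cd36 and Adrb3. In contrast, 6 members, Plin1, Aqp7, Agpat2, Dgat2, Acaca and Pnpla3, were highest in mouse 5. Fasn was not among the 18, with 1448 CPM in Klk6+ mouse 5 and its lowest value in Klk6+ mouse 3 (1106 CPM). Keratinocyte markers (5 of 8 higher, 1 lower) summed to 23358 to 34049 CPM in Klk6+ skin and 6575 to 18334 in WT skin, and Fabp5 and Cebpb are keratinocyte genes. All 9 macrophage markers fell, with sums of 331 to 1247 CPM in Klk6+ skin and 1169 to 5084 in WT skin, and 7 of 8 blood endothelium markers fell (183 to 255 CPM in Klk6+ skin, 333 to 485 in WT skin), cells that also express Cd36 and Fabp4. The 8 markers of mammary epithelium, which lies in the fat below the skin of females, summed to 34.8 to 75.4 CPM in Klk6+ skin and 16.5 to 31.3 in WT skin, with 2 of the 3 tested markers higher and the milk protein genes Csn2 and Wap at 0 reads in all 10 libraries. The genes named with each cell type are not a full list of those it expresses. The part of these cell types in the differences of the members and of the other genes named here was not tested.

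**Figure D2:**
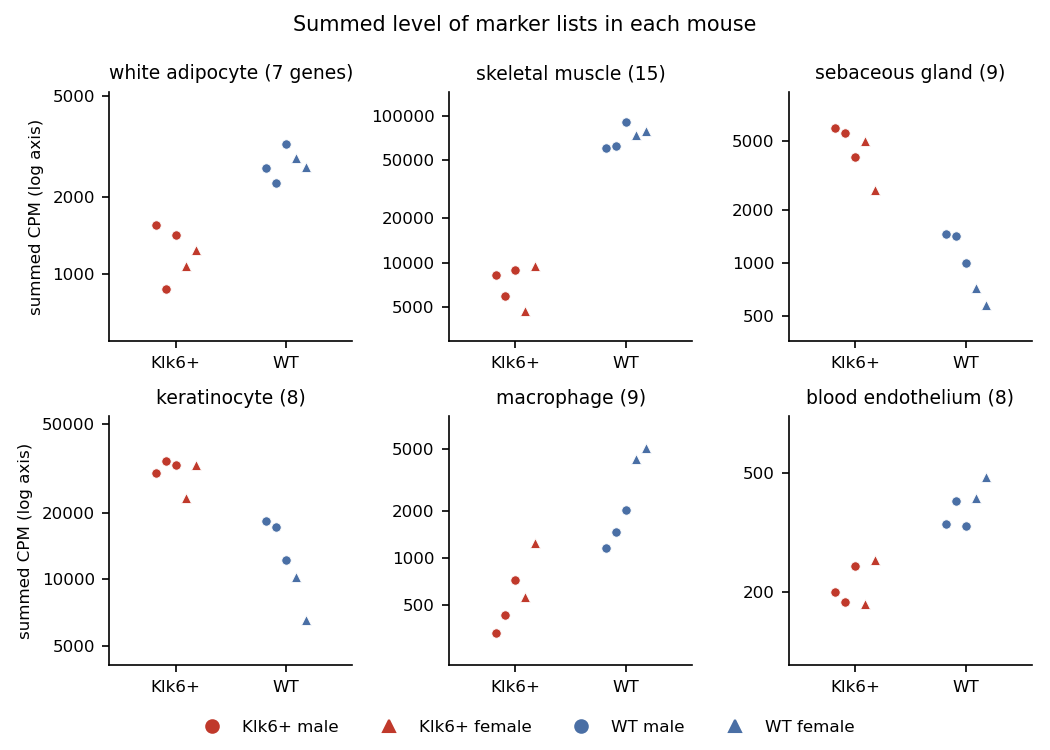
Summed CPM (log axis) of each marker list in each mouse, Klk6+ left of WT. Muscle and white adipocyte sums are lower and sebaceous and keratinocyte sums higher in every Klk6+ mouse than in any WT mouse.

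All 4 adipokines fell, with a median log2 fold change of -1.31. Adiponectin, encoded by Adipoq (chr16:23146536-23158028, plus strand), is an abundant hormone of fat cells, and leptin, encoded by Lep (chr6:29060220-29073877, plus strand), reports the size of the fat store to the brain. Lep had 4.96, 6.45, 9.87, 8.06 and 1.01 CPM in Klk6+ mice, against 49.8, 66.6, 52.9, 64.0 and 86.3 CPM in WT mice. Every Klk6+ mouse was below every WT mouse, and mouse 5 was the lowest (log2 fold change -3.40 ± 0.46, adjusted p = 8.39e-05). Adipoq had 112, 62.5, 103, 80.8 and 70.2 CPM in Klk6+ mice, against 192, 191, 321, 313 and 264 CPM in WT mice, again with no overlap (log2 fold change -1.58 ± 0.22, adjusted p = 9.64e-05). Cfd, which encodes adipsin (complement factor D), had 832, 395, 769, 514 and 750.5 CPM in Klk6+ mice, against 1358, 1155, 1706, 1227 and 1311 CPM in WT mice. The lowest WT mouse stood above the highest Klk6+ mouse (log2 fold change -1.05 ± 0.21, adjusted p = 0.00119). Retn encodes resistin, a hormone made by mouse adipocytes, and had 70.1, 41.3, 55.8, 56.2 and 51.4 CPM in Klk6+ mice, against 65.0, 102, 125, 103 and 96.4 CPM in WT mice. Here the groups overlapped, because WT mouse 1 lay below Klk6+ mouse 1 (log2 fold change -0.84 ± 0.18, adjusted p = 0.002).

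The fall was unequal among the hormones. Within each library, the ratio of Lep to Adipoq was 0.0146 to 0.103 in Klk6+ skin and 0.165 to 0.349 in WT skin, a log2 difference of -2.12 that does not depend on library scaling (exact permutation p = 0.00794, two-sided, the smallest that 5 against 5 allows; adjusted p over the 9 ratios tested = 0.0102). Without Klk6+ mouse 5 the difference was -1.63. The ratio of Retn to Adipoq was 0.544 to 0.732 in Klk6+ skin and 0.329 to 0.534 in WT skin (log2 difference 0.75, exact permutation p = 0.00794, adjusted p = 0.0102). Neither ratio overlapped between genotypes. Lep against the droplet gene Plin1 gave 0.0197 to 0.399 in Klk6+ skin and 0.380 to 0.629 in WT skin, which overlapped (log2 difference -1.61, exact permutation p = 0.0159, adjusted p = 0.0179). That last difference was -0.85 without Klk6+ mouse 5 and missed the threshold whenever 1 WT mouse was left out (adjusted p 0.054 to 0.116).

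**Figure D3:**
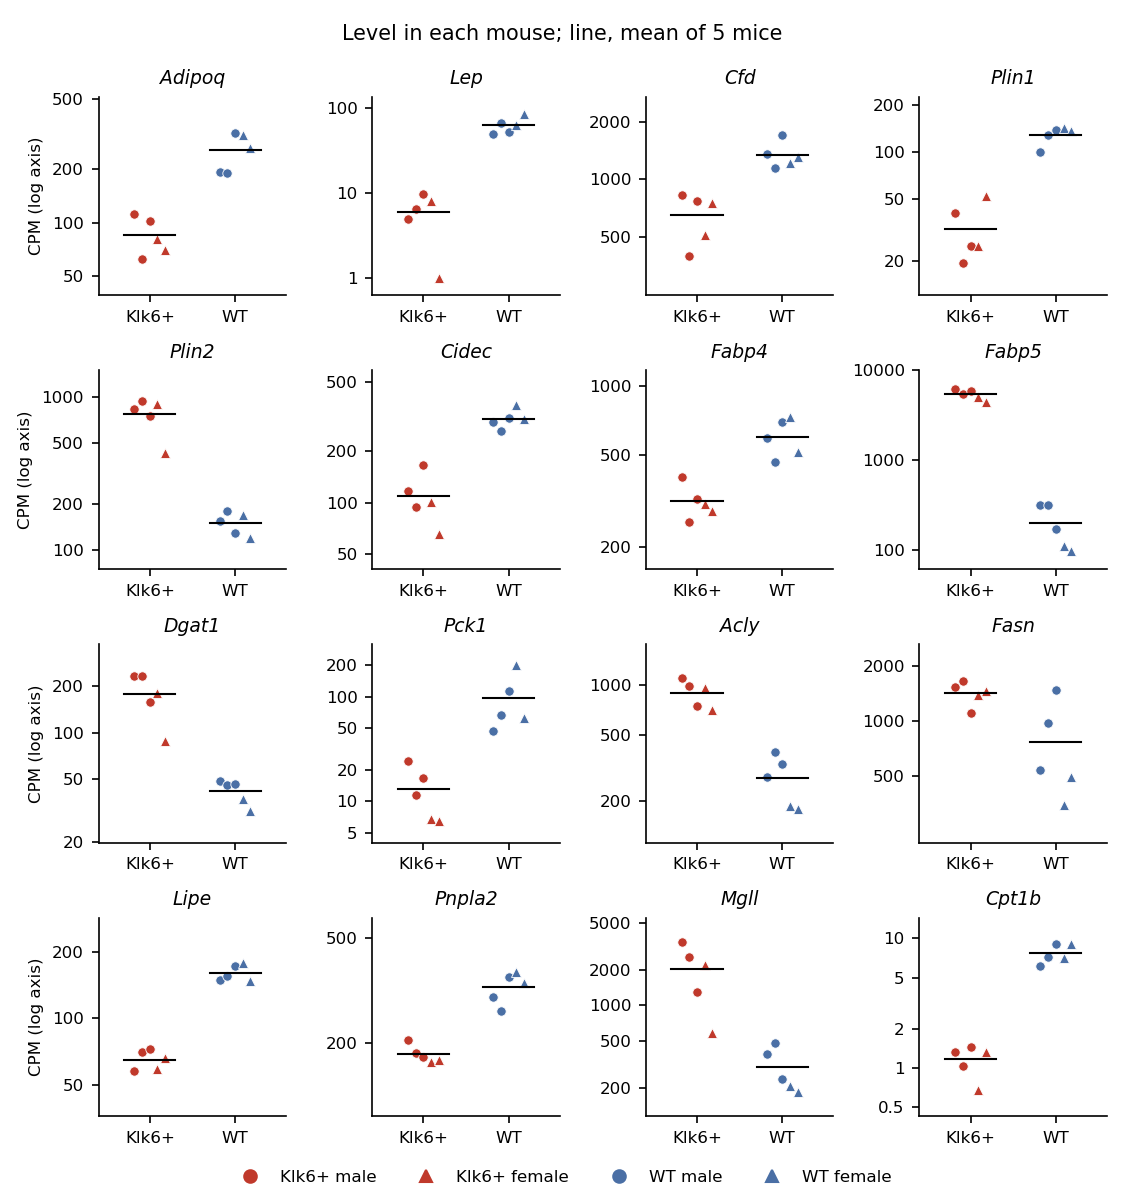
CPM (log axis) of 16 members in each mouse, Klk6+ left of WT, circles for males and triangles for females, with a line at the mean of 5 mice. Adipoq, Lep, Cfd and Plin1 are lower in all Klk6+ mice than in any WT mouse, Plin2, Fabp5, Dgat1, Acly and Mgll are higher, and Fasn overlaps.

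Of the 5 regulators and markers of fat cell formation, 4 rose and Nnat fell. Cebpb, a transcription factor that acts early in adipogenesis and also in keratinocytes and inflammation, had 140.3, 123, 109.5, 139 and 119 CPM in Klk6+ mice, against 35.5, 46.0, 34.2, 30.1 and 29.6 CPM in WT mice. All Klk6+ values were above all WT values (log2 fold change 1.86 ± 0.13, adjusted p = 1.21e-06). Cebpa, which acts later and with PPAR-gamma, had 467, 500.1, 366, 457 and 397 CPM in Klk6+ mice, against 259.5, 309.7, 217, 280.1 and 225 CPM in WT mice, without overlap and with a smaller difference (log2 fold change 0.76 ± 0.13, adjusted p = 0.000413). The ratio of Cebpb to Cebpa was 0.245 to 0.305 in Klk6+ skin and 0.108 to 0.157 in WT skin (log2 difference 1.10, exact permutation p = 0.00794, adjusted p = 0.0102). Nnat, an imprinted gene for a small membrane protein of the endoplasmic reticulum, had 0.567, 0.871, 0.184, 0.432 and 0.261 CPM in Klk6+ mice, against 26.4, 5.92, 10.1, 69.2 and 48.2 CPM in WT mice. WT mice differed widely from one another in Nnat and still all lay above the Klk6+ mice (log2 fold change -5.76 ± 0.68, adjusted p = 3.05e-05). Pparg, the receptor that drives fat cell formation and is also used by sebocytes, averaged 56.9 ± 20.7 CPM in Klk6+ mice and 29.3 ± 3.30 CPM in WT mice (SD, n = 5 each) and rose by 0.95 ± 0.25 on the log2 scale, with overlap at Klk6+ mouse 5 (28.7 CPM). Adig, which encodes the small adipocyte protein adipogenin, averaged 37.9 ± 14.2 CPM in Klk6+ mice and 15.4 ± 2.35 CPM in WT mice (SD, n = 5 each, log2 fold change 1.28 ± 0.24); its lowest Klk6+ mouse (19.4 CPM, mouse 5) was just above the highest WT mouse (19.2 CPM).

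Among the 5 droplet coat genes, Plin2 rose and the other 4 fell. Plin1 (chr7:79720218-79732903, minus strand) encodes the perilipin that guards the adipocyte droplet against lipases, and had 40.3, 19.2, 24.7, 24.9 and 51.9 CPM in Klk6+ mice, against 101, 128, 139, 142 and 137 CPM in WT mice. The groups were apart (log2 fold change -2.02 ± 0.24, adjusted p = 3.6e-05). Plin4, a perilipin of white adipocytes and muscle, had 91.6, 83.0, 74.3, 59.3 and 70.8 CPM in Klk6+ mice, against 217, 257, 281, 221 and 229.8 CPM in WT mice, also apart and with little spread (log2 fold change -1.68 ± 0.11, adjusted p = 7.91e-07). Plin2 (chr4:86648386-86670060, minus strand), the perilipin that coats droplets in most other cell types, had 831, 935, 755, 897 and 429 CPM in Klk6+ mice, against 154, 179.8, 129, 170.5 and 120.3 CPM in WT mice. Klk6+ mouse 5 was the lowest of its group and still above the highest WT mouse (log2 fold change 2.34 ± 0.21, adjusted p = 4.96e-06). The ratio of Plin2 to Plin1 was 8.27 to 48.5 in Klk6+ skin, against 0.877 to 1.53 in WT skin (log2 difference 4.41, exact permutation p = 0.00794, adjusted p = 0.0102). Because Plin2 and Plin1 were each apart in opposite directions, their ratio had to be apart, and this p is no further test. Cidec, whose product fuses droplets into one, averaged 108 ± 36.4 CPM in Klk6+ mice and 308 ± 38.9 CPM in WT mice (SD, n = 5 each, log2 fold change -1.53 ± 0.21). Plin5, a perilipin of muscle and other oxidative tissue, averaged 2.28 ± 0.566 CPM in Klk6+ mice and 8.15 ± 3.22 CPM in WT mice (SD, n = 5 each, log2 fold change -1.85 ± 0.29).

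Uptake and binding of fatty acids showed the same split between 1 gene and the rest. Fabp5 (chr3:10012548-10016607, plus strand), the epidermal fatty acid binding protein, had 6252, 5455, 5952, 4989.6 and 4454 CPM in Klk6+ mice, against 316, 316, 171, 111 and 99.7 CPM in WT mice. Every Klk6+ mouse stood above every WT mouse (log2 fold change 4.87 ± 0.27, adjusted p = 4.76e-07). Fabp4 (chr3:10204088-10208576, minus strand), its adipocyte neighbour on the same chromosome, had 402, 256, 323, 307 and 287 CPM in Klk6+ mice, against 594, 466, 694, 732 and 519 CPM in WT mice, without overlap in the other direction (log2 fold change -0.93 ± 0.16, adjusted p = 0.000467). The Fabp5 to Fabp4 ratio was 15.5 to 21.3 in Klk6+ skin and 0.151 to 0.677 in WT skin (log2 difference 5.83, exact permutation p = 0.00794, adjusted p = 0.0102). Since Fabp5 and Fabp4 were each apart in opposite directions, their ratio had to be apart, and this p is no further test. Aqp7, the channel through which glycerol leaves the adipocyte, had 2.81, 1.74, 2.76, 2.53 and 3.02 CPM in Klk6+ mice, against 9.99, 7.37, 7.63, 17.1 and 11.8 CPM in WT mice. Klk6+ mice were all lower (log2 fold change -2.01 ± 0.21, adjusted p = 1.5e-05). Lpl, the lipase that frees fatty acids from lipoproteins at the vessel wall, averaged 390.1 ± 114 CPM in Klk6+ mice and 803 ± 159.5 CPM in WT mice (SD, n = 5 each, log2 fold change -1.05 ± 0.22), and Cd36, the fatty acid translocase, averaged 366 ± 82.2 CPM in Klk6+ mice and 552 ± 43.2 CPM in WT mice (SD, n = 5 each, log2 fold change -0.61 ± 0.15). GENCODE names a near copy of Fabp5, Fabp5l2, which the tables do not list, so reads shared with it cannot be told apart.

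Fabp5 took up much of the summed level of the members in Klk6+ skin. The 40 members summed to 11947 to 19506 CPM in Klk6+ skin and 8287 to 10963 CPM in WT skin, and Fabp5 made up 32.1 to 40.4% of that sum in Klk6+ mice and 1.20 to 3.77% in WT mice. Without Fabp5 the sums were 7493 to 13254 CPM in Klk6+ mice and 8052 to 10792 CPM in WT mice, which overlapped.

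**Figure D4:**
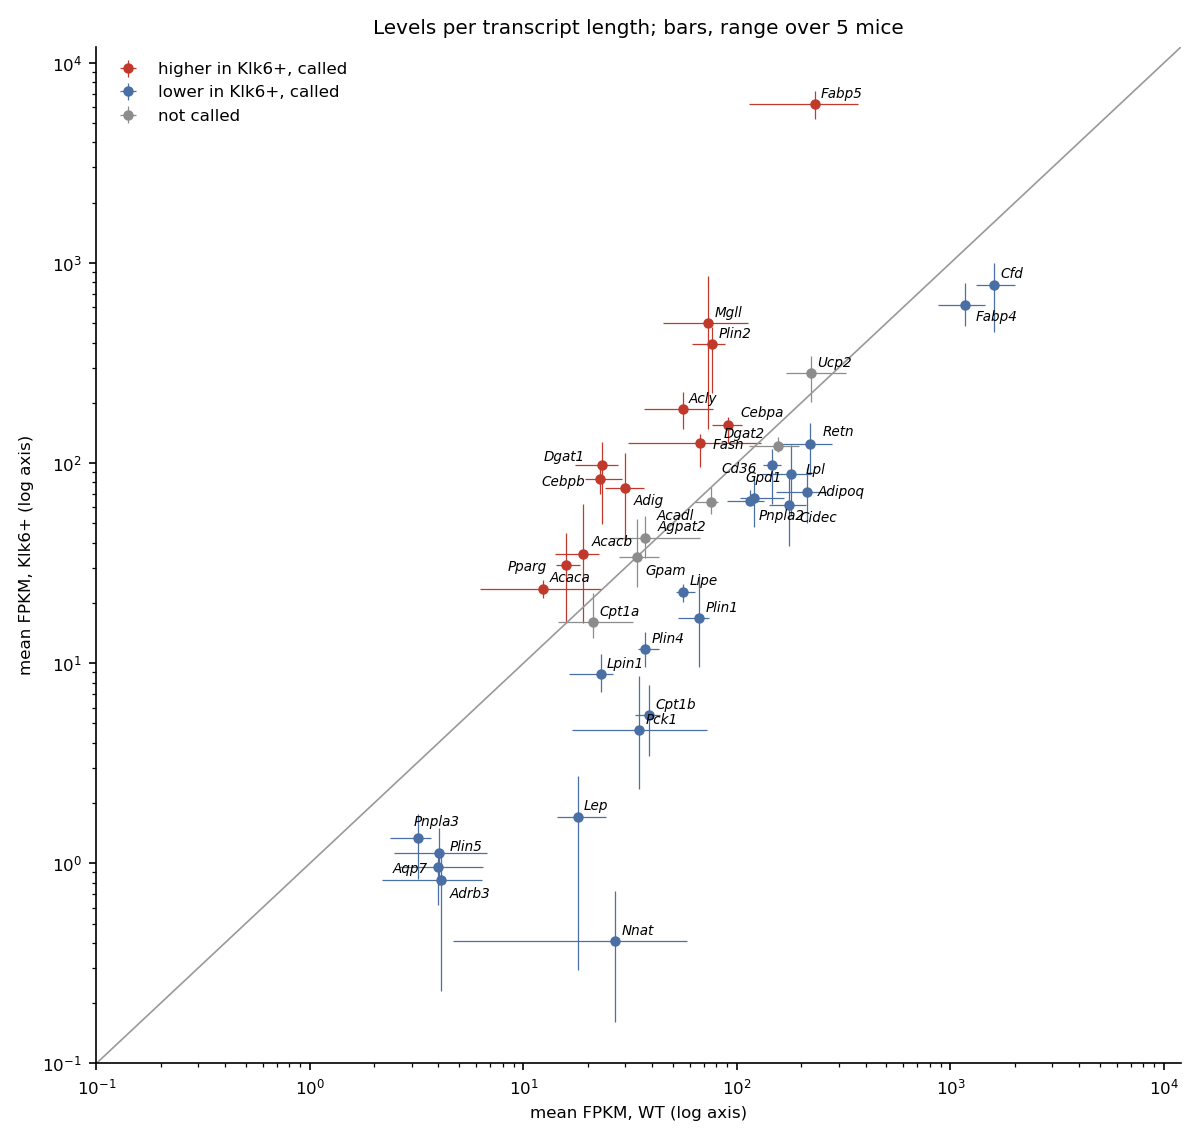
Mean FPKM in Klk6+ skin (vertical, log axis) against mean FPKM in WT skin (horizontal, log axis) for the tested members, with bars over the range of 5 mice and a line of equality. Cfd and Fabp4 lead in WT skin at 1602 and 1175 FPKM, and Fabp5 leads in Klk6+ skin at 6243 FPKM.

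Per transcript length, the 4 highest mean levels in Klk6+ skin were Fabp5 at 6243 ± 749, Cfd at 779.8 ± 227, Fabp4 at 619.7 ± 112 and Mgll at 502 ± 276 FPKM (SD, n = 5). In WT skin they were Cfd at 1602 ± 257, Fabp4 at 1175 ± 235, Fabp5 at 231 ± 121 and Ucp2 at 223 ± 70.5 FPKM (SD, n = 5). Fabp5 stood clear of the rest in Klk6+ skin, and the SD ranges of Cfd, Fabp4 and Mgll overlapped there, as did those of Mgll and Plin2 (394 ± 102 FPKM). In WT skin those of Cfd and Fabp4 overlapped, but Cfd was above Fabp4 in each WT mouse. Fabp5 and Ucp2 had no clear order in WT skin with Retn (220.0 ± 46.6 FPKM) and Adipoq (213 ± 53.6 FPKM).

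Triglyceride synthesis was mixed: Dgat1 rose, Gpd1, Lpin1 and Pck1 fell, and Gpam, Agpat2 and Dgat2 were not called. Dgat1 and Dgat2 encode the acyltransferases of the final step. Dgat1 had 228, 231, 158, 179.8 and 87.9 CPM in Klk6+ mice, against 48.9, 46.4, 46.9, 37.7 and 31.5 CPM in WT mice. Every Klk6+ mouse was above every WT mouse, mouse 5 least so (log2 fold change 2.05 ± 0.19, adjusted p = 6.46e-06). Dgat2 averaged 289 ± 20.3 CPM in Klk6+ mice and 373 ± 94.9 CPM in WT mice (SD, n = 5 each) and missed the threshold by a small margin (log2 fold change -0.34 ± 0.14, adjusted p = 0.0544), and was called under 9 of the 21 alternative scalings, filters, tests and sets of mice (-0.49 to -0.38). Lpin1, the phosphatidate phosphatase before that step, had 68.9, 56.5, 46.0, 49.9 and 52.1 CPM in Klk6+ mice, against 99.2, 160.1, 165, 144 and 152 CPM in WT mice. The groups did not overlap (log2 fold change -1.40 ± 0.16, adjusted p = 2.38e-05). Pck1, whose enzyme lets fat cells make glycerol phosphate from precursors other than sugar, had 24.1, 11.5, 16.5, 6.82 and 6.41 CPM in Klk6+ mice, against 46.5, 66.7, 115, 199.9 and 62.7 CPM in WT mice. All Klk6+ values were lower (log2 fold change -2.96 ± 0.53, adjusted p = 0.000525). Gpd1, which makes glycerol phosphate from a glycolytic intermediate, averaged 199 ± 47.3 CPM in Klk6+ mice and 361 ± 80.9 CPM in WT mice (SD, n = 5 each, log2 fold change -0.86 ± 0.20). Gpam, the enzyme of the first acylation, averaged 143 ± 48.5 CPM in Klk6+ mice and 143 ± 26.8 CPM in WT mice (SD, n = 5 each), and Agpat2, of the second, averaged 67.1 ± 12.3 CPM in Klk6+ mice and 59.6 ± 28.3 CPM in WT mice (SD, n = 5 each), with overlap in both. Agpat2 was called without WT mouse 3 (0.49, adjusted p = 0.029), the highest of all 10 mice.

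All 4 genes of fatty acid synthesis rose, but 3 of them overlapped between genotypes. Split by sex, 1 was called in males (Acly) and 3 in females (Acly, Acaca and Fasn), and Acacb in neither. Acaca and Fasn had log2 fold changes of 0.52 ± 0.27 and 0.52 ± 0.33 in males, against 1.75 ± 0.34 and 1.75 ± 0.41 in females. Their interaction was not called (edgeR adjusted p = 0.414 and 0.509). Acly, which makes cytosolic acetyl-CoA from citrate, had 1109, 992, 753, 957 and 705 CPM in Klk6+ mice, against 281, 394, 336, 186 and 179.6 CPM in WT mice, without overlap (log2 fold change 1.77 ± 0.18, adjusted p = 1.27e-05). Acaca, the acetyl-CoA carboxylase of the synthetic pathway, had 235, 247, 222, 238 and 261 CPM in Klk6+ mice, against 98.4, 154, 239, 63.4 and 85.0 CPM in WT mice. WT mouse 3 reached the Klk6+ range (log2 fold change 1.01 ± 0.28, adjusted p = 0.00857). Fasn, fatty acid synthase, had 1539.7, 1646, 1106, 1379 and 1448 CPM in Klk6+ mice, against 539, 973, 1476, 345 and 495 CPM in WT mice. The same WT mouse lay within the Klk6+ range (log2 fold change 1.01 ± 0.32, adjusted p = 0.015). Acacb, the carboxylase whose product restrains mitochondrial uptake of fatty acids, had 594, 406, 193, 336 and 149 CPM in Klk6+ mice, against 213, 219, 188, 162 and 136 CPM in WT mice. Klk6+ mice 3 and 5 lay within the WT range (log2 fold change 0.85 ± 0.29, adjusted p = 0.0235), and the call was lost on FPKM and without Klk6+ mouse 1, Klk6+ mouse 4 or WT mouse 3. The ratio of Acacb to Acaca was 0.571 to 2.53 in Klk6+ skin and 0.786 to 2.56 in WT skin (log2 difference -0.35, exact permutation p = 0.492, adjusted p = 0.492).

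In lipolysis, the first enzymes of the chain fell and the last rose. Pnpla2 encodes adipose triglyceride lipase, which takes off the first fatty acid, and had 207, 183, 177, 169.6 and 173 CPM in Klk6+ mice, against 299, 265, 357, 372 and 338 CPM in WT mice. Klk6+ mice were all lower (log2 fold change -0.84 ± 0.11, adjusted p = 7.42e-05). Lipe, hormone-sensitive lipase, takes off the next one and had 57.7, 70.1, 72.8, 58.9 and 66.1 CPM in Klk6+ mice, against 149, 155, 172, 178 and 148 CPM in WT mice. It had the smallest p of this group and no overlap (log2 fold change -1.30 ± 0.10, adjusted p = 1.81e-06). Mgll, monoacylglycerol lipase, frees the last fatty acid and averaged 2011 ± 1108 CPM in Klk6+ mice and 297 ± 127 CPM in WT mice (SD, n = 5 each, log2 fold change 2.77 ± 0.39), without overlap. Among Klk6+ mice it ranged widely, with mouse 5 at 580.3 CPM and mouse 1 at 3431 CPM. Klk6+ mice had the same order in Mgll as in the summed sebaceous markers, from 2629.7 CPM in mouse 5 to 5926 CPM in mouse 1. A part of sebaceous glands in the rise of Mgll was not tested. Pnpla3, adiponutrin, a relative of Pnpla2 that acts on droplets, had 6.94, 7.04, 4.58, 6.95 and 8.83 CPM in Klk6+ mice, against 12.3, 20.2, 17.9, 17.2 and 16.8 CPM in WT mice, all lower in Klk6+ mice (log2 fold change -1.31 ± 0.18, adjusted p = 9.3e-05). Adrb3, the adrenergic receptor that switches lipolysis on in adipocytes, averaged 2.51 ± 1.18 CPM in Klk6+ mice and 12.5 ± 4.80 CPM in WT mice (SD, n = 5 each, log2 fold change -2.26 ± 0.43). Pnpla2 fell less than Plin1: their ratio was 3.33 to 9.52 in Klk6+ skin and 2.07 to 2.98 in WT skin (log2 difference 1.25, exact permutation p = 0.00794, adjusted p = 0.0102).

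**Figure D5:**
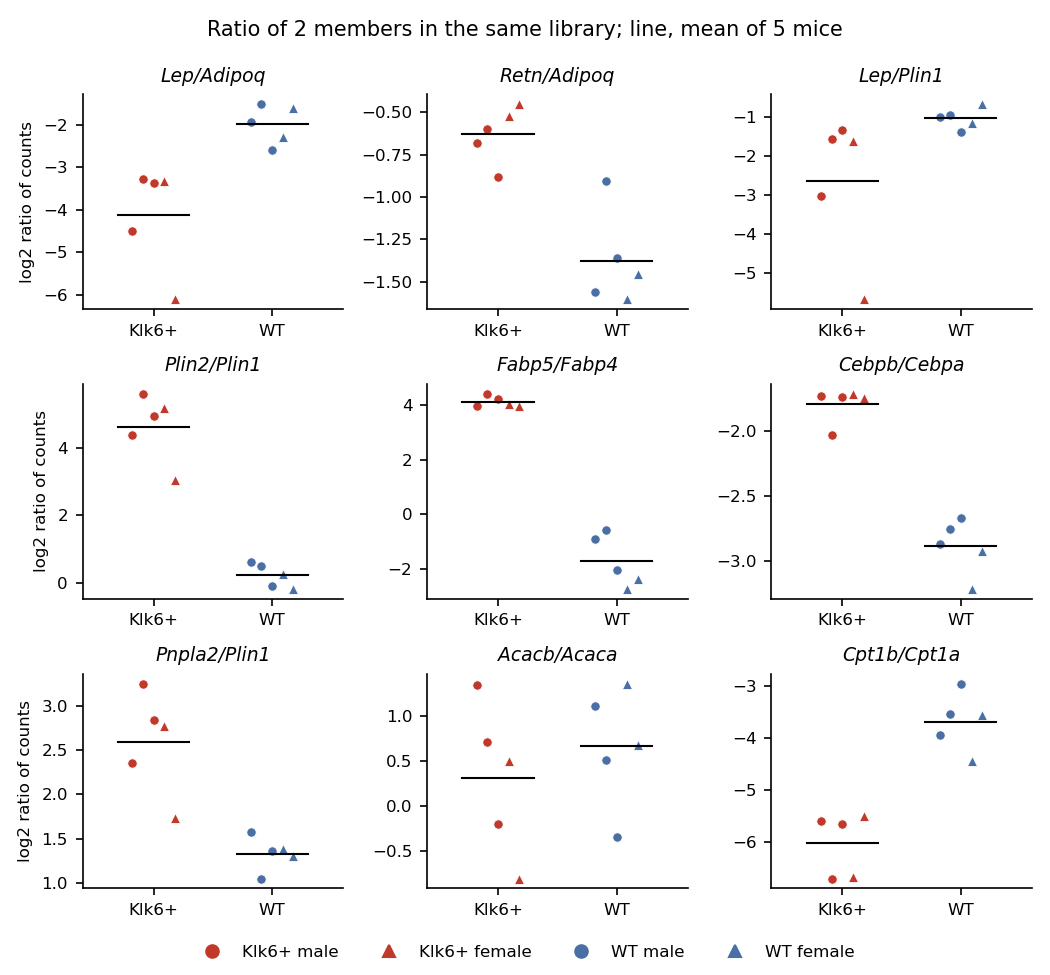
Log2 ratio of 2 members within the same library, for the 9 ratios tested, Klk6+ left of WT, a point per mouse. Groups are apart in 7 ratios and overlap in Lep/Plin1 and Acacb/Acaca. Plin2/Plin1 and Fabp5/Fabp4 had to be apart, since the members of each pair were apart in opposite directions.

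Of the 4 tested genes of heat production and fatty acid oxidation, Cpt1b fell and 3 were not called. Cpt1b, the carnitine palmitoyltransferase of muscle and brown fat, had 1.33, 1.05, 1.45, 0.679 and 1.34 CPM in Klk6+ mice, against 6.18, 7.22, 9.03, 7.05 and 9.02 CPM in WT mice. The groups were far apart (log2 fold change -2.72 ± 0.23, adjusted p = 3.68e-06). Cpt1a, the form of most other tissues, had 64.6, 111, 73.6, 70.9 and 61.6 CPM in Klk6+ mice, against 94.3, 83.6, 69.6, 153 and 106 CPM in WT mice. These overlapped (log2 fold change -0.38 ± 0.23, adjusted p = 0.152), and Cpt1a was called without Klk6+ mouse 2 (-0.57, adjusted p = 0.018), which stood above the other Klk6+ mice. The ratio of Cpt1b to Cpt1a was 0.00961 to 0.0221 in Klk6+ skin and 0.0461 to 0.130 in WT skin (log2 difference -2.35, exact permutation p = 0.00794, adjusted p = 0.0102). In GENCODE M21, 81.4% of the Cpt1b exon bases are shared with a read-through gene on the same strand, and its count-based level is low for its FPKM (5.52 FPKM in Klk6+ skin, 38.7 in WT skin), so its level is uncertain. Acadl, the long-chain acyl-CoA dehydrogenase, had 153, 132, 143, 111 and 110.1 CPM in Klk6+ mice, against 152, 134, 161, 156 and 166 CPM in WT mice. The groups overlapped (log2 fold change -0.25 ± 0.11, adjusted p = 0.0564), and Acadl was called under 8 of the 21 alternatives (-0.35 to -0.26). Ucp2, a mitochondrial carrier found in many cell types, had 487, 571, 369, 498 and 313 CPM in Klk6+ mice, against 266, 302, 274, 512 and 431 CPM in WT mice, with overlap (log2 fold change 0.37 ± 0.22, adjusted p = 0.148). It was called without Klk6+ mouse 5 (0.50, adjusted p = 0.026). The kit does not mark strand, and exon bases shared with a gene on the opposite strand made up 24.9% in Adrb3, 20.7% in Cebpb, 15.6% in Lipe and 13.0% in Gpd1, where reads of the partners cannot be told apart.

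Split by sex, 10 members rose and 21 fell in males (33.4% and 31.0% of all genes, 64.4% called in all), and 10 rose and 22 fell in females (31.2% and 28.4% of all genes, 59.6% in all). Of the members, 27 were called alike in males, in females and over both sexes, 8 of them higher and 19 lower, and 34 had the same sign in both sexes. The matching shares of all genes were not computed, so these counts do not set the members apart from other genes. The difference between the sexes was called for 0 members and 0 genes (0.0%) by edgeR, where 1410 genes and 11 members had an unadjusted p below 0.05. DESeq2 called 261 genes and 0 members (1617 and 13 at an unadjusted p below 0.05), and limma-voom called 0 of either (1336 and 7). The smallest p among members belonged to Dgat2, whose log2 fold change was -0.62 ± 0.12 in males and 0.081 ± 0.15 in females (interaction adjusted p = 0.306), followed by Ucp2 (0.76 ± 0.21 in males, -0.22 ± 0.25 in females, adjusted p = 0.385) and Pck1 (-2.13 ± 0.48 in males, -4.31 ± 0.65 in females, adjusted p = 0.395).

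Genes of the same pathways outside the 40 were counted in 9 lists. Values in brackets are log2 fold changes ± SE. Counting each gene once, 100 were tested, of which 27 rose, 48 fell and 25 were not called. Of all tested genes 37.7% rose and 35.1% fell (72.8% called in all), so the share called in either direction was near that of all genes. By direction, the share that rose was below that of all genes and the share that fell was above it. The counts of each list are to be read against the shares of all tested genes. Of 7 other adipokines 0 rose and 5 fell, among them Angptl2 (-2.15 ± 0.12), an angiopoietin-like secreted factor, Retnla (-6.36 ± 0.53), a resistin-like molecule that macrophages also make, and Rbp4 (-2.24 ± 0.35), the retinol carrier of plasma. Of 9 genes of the insulin response 1 rose and 7 fell, including the kinase Akt2 (-0.73 ± 0.078) and the phosphoinositide kinase subunit Pik3r1 (-1.34 ± 0.15). Of 11 adipogenic transcription factors 1 rose and 6 fell, led by the carbohydrate sensor Mlxipl (-2.50 ± 0.20), Ebf1 (-2.04 ± 0.24) and Klf15 (-1.75 ± 0.21).

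Among 9 preadipocyte and progenitor genes 2 rose and 7 fell: the surface proteins Cd34 (-2.44 ± 0.16) and Pdgfrb (-0.76 ± 0.088) fell and Cd24a (1.63 ± 0.13), also made by keratinocytes, rose. The 16 genes of droplet and lipolysis control divided into 6 higher and 8 lower, with Cav1 (-2.01 ± 0.11), the caveolar protein, and Fitm1 (-3.26 ± 0.19), a droplet-forming protein of muscle, lower and Abhd5 (1.47 ± 0.10), the activator of adipose triglyceride lipase, higher. Of 9 other uptake and lipoprotein genes 2 rose and 5 fell, among them the receptor Vldlr (-2.26 ± 0.23) lower, and the fatty acid transporter Slc27a4 (3.08 ± 0.33) and the apolipoprotein Apoc1 (1.39 ± 0.17) higher.

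Of 15 other genes of triglyceride and fatty acid synthesis 10 rose and 2 fell, with a median of 1.22, and the desaturase Scd2 (2.09 ± 0.20), the elongase Elovl6 (3.05 ± 0.34) and the phosphatidate phosphatase Lpin3 (1.22 ± 0.16) were higher. The 10 other thermogenic genes showed no single direction, with 3 higher and 4 lower: the cytochrome oxidase subunits Cox7a1 (-3.10 ± 0.16) and Cox8b (-2.76 ± 0.18), found in brown fat and in muscle, were lower, and the glycerol kinase Gyk (5.17 ± 0.28) was higher. Of 16 other genes of fatty acid oxidation 3 rose and 4 fell, with Eci1 (-1.40 ± 0.13) and the kinase Pdk4 (-2.96 ± 0.59) lower and the carnitine carrier Slc25a20 (0.75 ± 0.19) higher.

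The mice also ranked unevenly across members. Klk6+ mouse 1 was the highest of its group in 20 of the 39 members. In the WT group, mouse 3 was the highest in 14 members and mouse 4 in 13, while mouse 1 was the lowest in 14. Over the 39 tested members, the coefficient of variation over 5 mice ran from 6.00% (Acaca) to 58.8% (Nnat) in Klk6+ skin and from 7.82% (Cd36) to 83.3% (Nnat) in WT skin. Acaca and Fasn varied more among WT mice, at 55.0% and 60.2%, than among Klk6+ mice, where Fasn had 14.3%, and these differences in spread were not tested.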

How the data were processed

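Whole mouse skin was snap-frozen and its polyadenylated RNA was sequenced as 50-cycle single-end reads with a kit that does not mark strand, per the labels' protocols. For each mouse the authors deposited a table of genes with a read count and an FPKM value. The counts are raw whole numbers per gene as deposited. The FPKM values were scaled to length and library size by the authors. The submitters' processing notes list Cufflinks 2.2.1, HTSeq, TopHat2 and SAMtools, and as builds mm10 and GRCm38, with no role for each. Of the annotation, the strand setting and the handling of reads that match several genes nothing is stated there (not given in the sources used here).

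Counts were tested in R 4.3.3 with edgeR 4.0.16 (trimmed mean of M values, filterByExpr with a minimum count of 10, quasi-likelihood F test on genotype with sex as a covariate), which left 14861 of 20611 genes. The biological coefficient of variation was 0.244. The effects within each sex and the interaction came from a model of 4 genotype-by-sex means, and p-values were adjusted by Benjamini-Hochberg over all tested genes. The 9 within-library log2 ratios (0.5 counts added) were tested by a two-sided exact permutation over 252 assignments, whose smallest p is 0.00794. Alternatives were other scalings, no filter, DESeq2 1.42.0, limma 3.58.1 (voom on counts, and trend on log2(FPKM + 1) or log2(FPKM + 0.1)), no sex term and leaving out each mouse. Scripts were tested on simulated data.

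The members, role groups and other gene lists were chosen with earlier results of these data known. All 40 members are named, with values in every mouse for up to 3 per role by smallest p and for Adipoq, Lep, Ucp1 and every gene of a ratio. Up to 3 genes by smallest p are named from each other list, under the symbols of the deposited tables, and 1 gene that this rule names is not reported here. The genes compared with the lowest and highest mice were singled out after their values were seen. Replicate numbers follow accession order and carry no pairing. The lowest chi-square per degree of freedom between 2 libraries of a genotype was 40.5, so no library was a repeat of another. Litter and batch were not given, so p-values measure the spread between these mice.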

Additional observations from a re-analysis of the deposited data

Results flagged for a closer look

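Among 78 sets of 5 mice, 1 set for each tested member and genotype, 2 held a mouse whose gap to its nearest neighbour was more than 0.71 of the whole range. Chance gives such a gap in about 1 of 20 sets. Cpt1a stood at 110.5 CPM in Klk6+ mouse 2, with the other Klk6+ mice at 61.6 to 73.6 CPM. Gpd1 stood at 503.1 CPM in WT mouse 3, with the other WT mice at 312 to 351 CPM.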

How the results depend on the processing

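Under the 21 alternatives of the genotype test, 11 to 13 members rose and 21 to 23 fell. In males 10 to 12 rose and 19 to 22 fell, in females 8 to 11 rose and 18 to 23 fell, and 0 members were called for the interaction under the alternatives run for it. Of the 39 members, 32 held their direction and their side of the threshold under all 21 alternatives, and Gpam, Agpat2, Dgat2, Acadl, Acacb, Ucp2 and Cpt1a did not. The near-zero values of 2 members changed sign: Gpam (-0.0026) was 0.011 with no filter, 0.17 without both Klk6+ mice 3 and 5 (a setting chosen after seeing the data), 0.033 without Klk6+ mouse 2, 0.091 without Klk6+ mouse 3, 0.015 without Klk6+ mouse 5 and 0.053 without WT mouse 3, and Agpat2 (0.21) was -0.0035 without Klk6+ mouse 5. When 1 mouse was left out, Gpam ranged from -0.20 to 0.091 and Agpat2 from -0.0035 to 0.49. The log2 difference of Lep/Plin1 ranged from -1.94 to -0.85 when 1 mouse was left out. Acacb missed the threshold on FPKM (0.71, adjusted p = 0.054), and without Klk6+ mouse 1 (0.60), Klk6+ mouse 4 (0.61) or WT mouse 3 (0.77). Dgat2 passed it under 9 alternatives (-0.49 to -0.38): the 3 other scalings, DESeq2, and without Klk6+ mouse 4, Klk6+ mouse 5, both Klk6+ mice 3 and 5, WT mouse 4 or WT mouse 5. Acadl passed it under 8 (-0.35 to -0.26): the 3 other scalings, DESeq2, limma-voom, and without Klk6+ mouse 1, Klk6+ mouse 3 or WT mouse 2. On log2(FPKM + 1) the differences of low genes were smaller by over 1.5 times: Nnat -3.83, Adrb3 -1.46, Aqp7 -1.31, Plin5 -1.19 and Pnpla3 -0.85. Mean FPKM of these genes in Klk6+ skin was 0.408 (Nnat) to 1.33 (Pnpla3), and adding 1 to such low values draws log ratios toward 0. The causes of the other changes between settings were not tested. No paired analysis was possible because the labels give the 2 genotypes no shared replicate numbers. The depth limits Ucp1, with at most 4 reads in a library.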
